A study of Homo sapiens with 3 samples.

Results

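The genes described here are the MHC class II chains HLA-DRA, HLA-DPA1, HLA-DQA1 and HLA-DPB1, the class II loading factors HLA-DMA, HLA-DMB, HLA-DOA and CD74, and the class II co-activator CIITA. They were taken as every probe set paired with exactly 1 gene symbol, that symbol being one of these 9. All 9 genes were found, with 23 of the 41097 such probe sets, among 19775 genes. They were picked with their differences from vehicle on these same arrays in view, so those differences are a description and not a test.

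RNA was measured on 3 Affymetrix HG-U133 Plus 2 arrays, 1 for each group of MDA-MB-231, a long-established line of mesenchymal type from a human breast cancer. The groups were cells given ERα17p, a peptide derived from oestrogen receptor alpha, at 1 µM, cells given the oestrogen estradiol at 1 µM, and cells given 0.1% ethanol as vehicle, each for 3 h. All cells, vehicle included, had first spent 4 h in medium whose serum (10%) had been stripped with charcoal to remove steroids. In which solvent the peptide was given is not stated in the sources used here. There are no replicates, so no difference has a replicate check or a p-value.

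MHC class II molecules are pairs of an alpha and a beta chain that show peptides to CD4+ T cells. The chains assemble around CD74, the invariant chain, whose last fragment is exchanged for peptide by HLA-DM, while HLA-DO restrains HLA-DM. CIITA is the co-activator that joins factors bound at an X box and a Y box before these genes, and interferon gamma is its best-known inducer outside professional antigen-presenting cells.

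The X and Y boxes are shown because CIITA acts through them and because members with and without a difference from vehicle can be set side by side. RefSeq promoter windows on GRCh38.p14, from 250 bases before to 50 after a gene's start, were matched for 7 of the 9 genes, all but HLA-DRA and CIITA; HLA-DPA1 has a pair of windows, giving 8. Each line below gives part of a window, 5′ to 3′ on the gene's strand. Capitals mark an X box core, CNAGNNAC, and a Y box core, ATTGG or its reverse complement CCAAT.
HLA-DPA1 (chr6:33073691-33073762, minus strand): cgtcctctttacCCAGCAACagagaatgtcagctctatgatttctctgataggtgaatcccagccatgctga
HLA-DPB1 (chr6:33075841-33075907, plus strand): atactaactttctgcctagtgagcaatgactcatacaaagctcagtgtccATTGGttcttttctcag
HLA-DMA (chr6:32953160-32953224, minus strand): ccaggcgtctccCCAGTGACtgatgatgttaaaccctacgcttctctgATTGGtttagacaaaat
HLA-DMB (chr6:32941059-32941130, minus strand): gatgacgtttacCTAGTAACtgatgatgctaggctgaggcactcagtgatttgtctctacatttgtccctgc
HLA-DOA (chr6:33009642-33009706, minus strand): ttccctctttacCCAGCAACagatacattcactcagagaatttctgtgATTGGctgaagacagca
HLA-DQA1 (chr6:32637290-32637354, plus strand): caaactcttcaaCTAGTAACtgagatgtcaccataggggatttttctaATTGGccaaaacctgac
CD74 (chr5:150412947-150413005, minus strand): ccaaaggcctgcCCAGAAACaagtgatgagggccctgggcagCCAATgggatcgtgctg

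With the cores as first set, AGNAAC followed by ATTGG after 20 to 36 bases on either strand, the pair was in the windows of HLA-DQA1 and HLA-DOA, 2 of 7 genes. It was in 0.692% of all 35116 promoter windows. AGNAAC alone was in 42.4% of windows and ATTGG alone in 34.6%. The wider X core CNAGNNAC, chosen after these sequences were seen, overlaps AGNAAC and alone was in 39.3% of windows. Followed by ATTGG or CCAAT after 20 to 45 bases, it was found in HLA-DMA and CD74 as well, 4 of 7 genes, and in 1.87% of all windows. In HLA-DMA, HLA-DOA and HLA-DQA1 the gap between the cores was 28 bases, and in CD74, whose Y core lies the other way round, it was 22. Of the 4 genes with the wider pair, HLA-DMA was over 2-fold higher than vehicle under both treatments, and the other 3 were within 1.5-fold by their gene medians. The 3 genes without it, HLA-DPA1, HLA-DPB1 and HLA-DMB, were all over 2-fold higher by their gene medians. Only exact matches to the cores were counted, so a box with another base in its core would be missed. Nothing is read from this split.

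Values are the deposited log2 values, read here as centred for each probe set on a reference level that is described in no source. A value of 0 is that unknown level, not absence of RNA. Neither the expression level of a gene nor the presence of a class II molecule can be read from them, and levels cannot be set against each other between genes. Markers of the cell line could likewise be compared between arrays only, not checked for presence. The vehicle array spread most widely, with an SD of 0.241, 0.260 and 0.494 over all probe sets on the ERα17p, estradiol and vehicle arrays. Labelling spikes, bacterial RNAs added before labelling, stood above the vehicle array by 2.04 with ERα17p and by 2.03 with estradiol (log2, medians of 27 probe sets). Hybridisation spikes, added later, were at -0.93 and -0.74 (18 probe sets). Their part in the differences below was not tested.

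The DR and DP alpha chains lay far below the reference level on the vehicle array and near or above it on both treated arrays. HLA-DRA, the chain shared by all DR molecules, read 0.22 with ERα17p, 0.65 with estradiol and -4.03 with vehicle with probe set 208894_at. Its other probe set, 210982_s_at, read 0.19, 0.64 and -3.80 on the same arrays. The pair thus gave nearly the same picture, with vehicle far below and estradiol somewhat above ERα17p. The gene's difference, the median over its probe sets, was 4.12 for ERα17p (17.3-fold) and 4.56 for estradiol (23.5-fold). In RNA from a whole culture, fewer cells with a transcript and less of it per cell cannot be told apart.

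HLA-DPA1, the alpha chain of DP, had 3 probe sets of the same shape. Probe set 211990_at read 0.023 (ERα17p), 0.22 (estradiol) and -4.07 (vehicle), and 211991_s_at read 0.37, 0.47 and -4.18. The third, 213537_at, read 0 with ERα17p, 1.003 with estradiol and -3.08 with vehicle. On every probe set the vehicle array was lowest by at least 3.08 (log2), and the treated arrays were ordered the same way. The median differences were 4.09 and 4.29, with probe sets from 3.08 to 4.55 for ERα17p and from 4.08 to 4.64 for estradiol. The 5 probe sets of these chains were among the 42 of all 54675 that read -3 or below on the vehicle array.

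The DP beta chain and the DQ alpha chain did not follow as clearly. HLA-DPB1 had 1 probe set, 201137_s_at, at 0.078, 0.32 and -2.14 on the ERα17p, estradiol and vehicle arrays, a difference of 2.22 and 2.46. The other, 244485_at, read 0.064, -0.020 and -0.090, so its arrays differed by 0.15 at most. The gene's median differences of 1.19 and 1.26 are therefore the middle of a pair of probe sets that disagree. HLA-DQA1 had differences from vehicle between -0.17 and 0.31 for ERα17p and between -0.070 and 0.74 for estradiol over 3 probe sets, with medians of 0.094 and -0.0087. Its highest value against vehicle came from 203290_at, which read -0.12, 0.52 and -0.22.

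**Figure D1:**
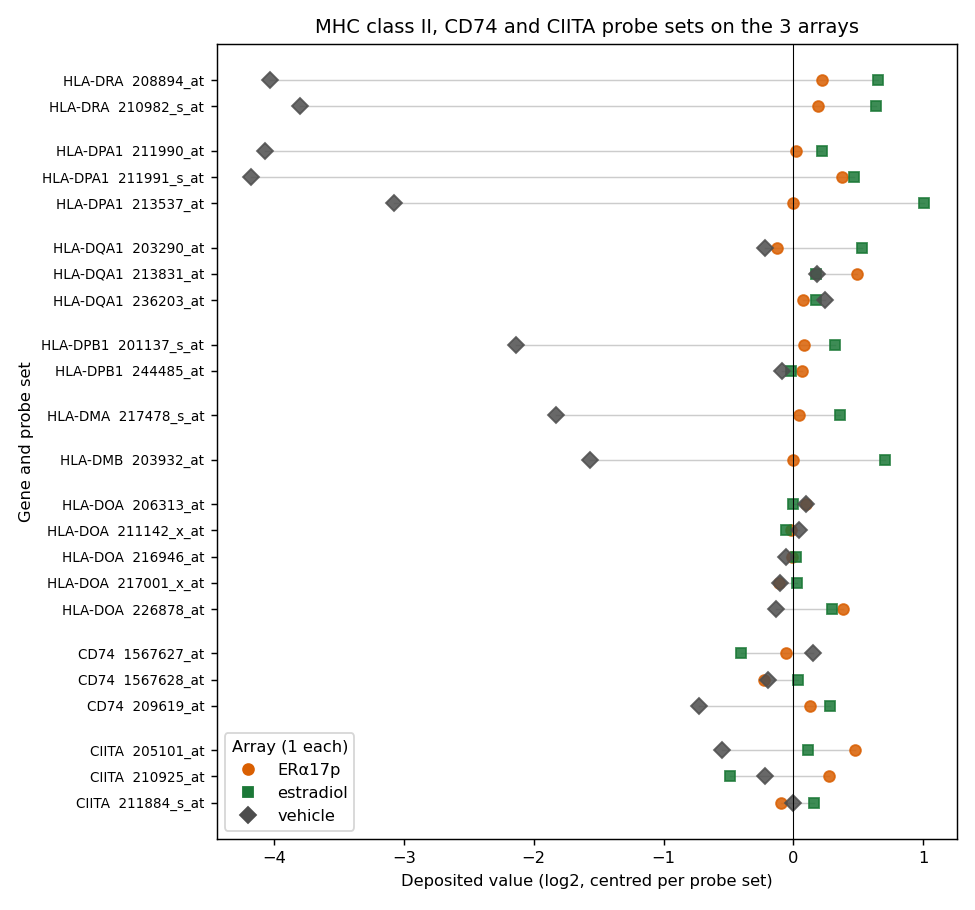
Deposited log2 values (x axis, centred per probe set) of the 23 probe sets of the 9 genes, grouped by gene down the page, with 1 point each for the ERα17p, estradiol and vehicle arrays. In 8 probe sets of HLA-DRA, HLA-DPA1, HLA-DPB1, HLA-DMA and HLA-DMB the vehicle point lies between -4.18 and -1.57, and in the other 15 it lies between -0.73 and 0.25.

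Both chains of HLA-DM, which edits the peptides bound to class II, were higher on the treated arrays. HLA-DMA read 0.040 with ERα17p, 0.36 with estradiol and -1.83 with vehicle, and was 1.87 (3.65-fold) and 2.19 (4.55-fold) above vehicle. HLA-DMB read 0, 0.70 and -1.57, and was 1.57 (2.96-fold) and 2.27 (4.83-fold) above vehicle. Each has a single probe set, so neither has a second reading. For both, vehicle was lowest and estradiol highest.

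HLA-DOA, the alpha chain of the HLA-DM inhibitor HLA-DO, stayed close to the reference level on all arrays. Its 5 probe sets had differences between -0.056 and 0.51 for ERα17p and between -0.099 and 0.43 for estradiol. The medians were -0.0047 and 0.072. The upper ends came from 226878_at, which read 0.38, 0.30 and -0.13 on the ERα17p, estradiol and vehicle arrays.

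CD74, the invariant chain, had probe sets that went different ways. Probe set 209619_at read 0.13 with ERα17p, 0.28 with estradiol and -0.73 with vehicle, a difference of 0.86 and 1.005. The others, 1567627_at and 1567628_at, had differences of -0.21 and -0.030 for ERα17p, and of -0.55 and 0.23 for estradiol. The gene medians, -0.030 and 0.23, thus hide 1 probe set near 2-fold and a pair within 1.5-fold.

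CIITA also differed by probe set. Probe set 205101_at read 0.47 with ERα17p, 0.11 with estradiol and -0.55 with vehicle, which made it 1.02 and 0.67 above vehicle. Probe set 210925_at read 0.27, -0.49 and -0.22, so it was 0.49 above vehicle with ERα17p and at -0.27 with estradiol. The third, 211884_s_at, read -0.100, 0.16 and -0.0039. Their medians were 0.49 and 0.16, inside 1.5-fold under both treatments.

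Counted as genes, 5 of the 9 were at least 2-fold higher than vehicle on the ERα17p array, where 3.34% of all genes were, and 0 were 2-fold lower, where 2.48% of all genes were. On the estradiol array 5 of 9 were at least 2-fold higher, where 3.94% of all genes were, and 0 were 2-fold lower (2.18% of all genes). The genes were chosen on these differences, so nothing is read from the counts. The 5 in each comparison were HLA-DRA, HLA-DPA1, HLA-DPB1, HLA-DMA and HLA-DMB. Both comparisons share the vehicle array. Without probe sets ending in _x_at or _s_at, which can match several transcripts, 3 of 8 genes were 2-fold higher in each comparison: HLA-DMA had no probe set left, and HLA-DPB1 was at 0.15 and 0.070. After quantile normalisation 3 of 9 were 2-fold higher with ERα17p and 4 of 9 with estradiol, where HLA-DPB1 was at 0.85. The median over the 9 genes was 1.19 for ERα17p and 1.26 for estradiol, and the median over all genes was 0.0021 and 0.0022.

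**Figure D2:**
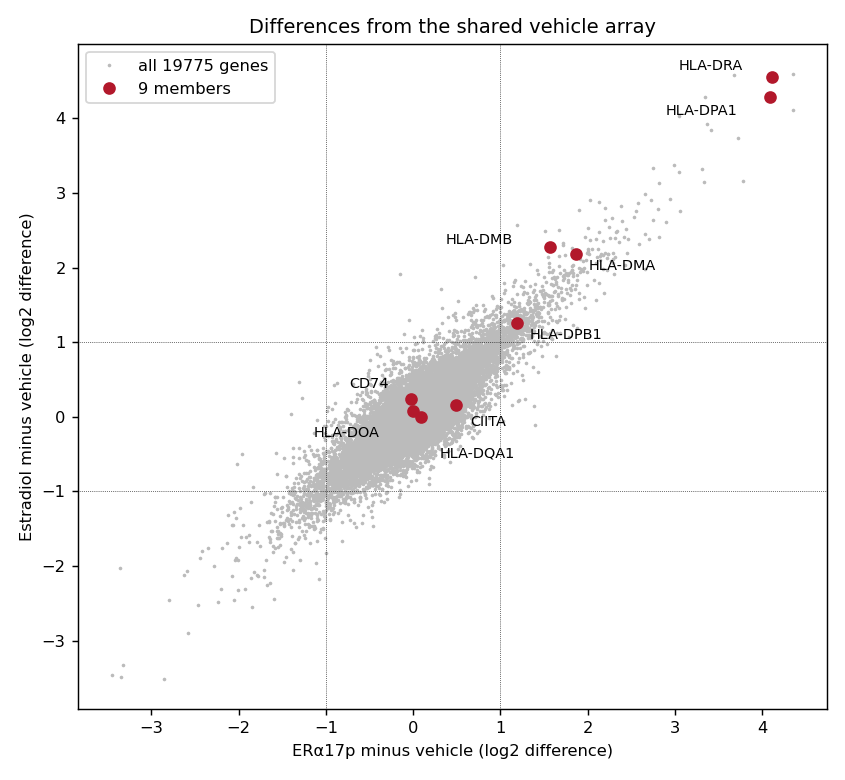
Log2 difference of each of 19775 genes from the vehicle array with ERα17p (x axis) and with estradiol (y axis), with the 9 genes in red and dotted lines at 2-fold. Both axes use the same vehicle array; HLA-DRA at 4.12 and 4.56 and HLA-DPA1 at 4.09 and 4.29 lie at the upper end, while HLA-DOA, HLA-DQA1 and CD74 lie near 0.

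In the 8 member probe sets that read -1 or below on the vehicle array, much of the distance was on the vehicle side of the reference level. They were picked by that value, so a low vehicle reading is given by the choice. They read between 0 and 0.37 on the ERα17p array, between 0.22 and 1.003 on the estradiol array and between -4.18 and -1.57 on the vehicle array. The other 15 member probe sets read between -0.73 and 0.25 on the vehicle array. A vehicle value of -1 or below was seen in 3.46% of single-symbol probe sets. Measured from the reference level in place of vehicle, 0 of the 9 genes were at least 1.5-fold higher with ERα17p, whereas HLA-DMB (0.70) and HLA-DRA (0.64) were with estradiol. Which arrays set the reference level is not known, and the difference cannot be assigned to 1 array from this. After quantile normalisation of the deposited columns, HLA-DRA was 2.37 and 2.99 above vehicle and HLA-DPA1 2.26 and 2.88.

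The ERα17p and estradiol arrays were also set against each other, with vehicle left out. HLA-DMB was lower on the ERα17p array, by a log2 difference of -0.70 (0.614-fold), and was the single gene of 9 past 1.5-fold in that direction, where 2.04% of all genes were. None of the 9 was 1.5-fold higher, where 1.29% of all genes were. HLA-DRA was at -0.44, with probe sets at -0.43 and -0.45. HLA-DMA was at -0.32 and HLA-DPA1 at -0.20, whose probe sets ran from -1.003 to -0.095.

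In all 8 probe sets that were low on vehicle the ERα17p value was below the estradiol value, by between 0.095 and 1.003. These 8 came from 5 genes and were picked by their vehicle value. The share among all probe sets as low on vehicle was not counted, so nothing is read from the 8. Of all 23 member probe sets, 15 were below and 8 above, where 48.1% of single-symbol probe sets were above. Over all 23 probe sets, 3 were at least 1.5-fold lower with ERα17p (3.27% of single-symbol probe sets), 1 of them at least 2-fold (0.314%), and 1 was 1.5-fold higher (3.61%). CIITA went the other way, 0.36 higher on the ERα17p array, with probe sets from -0.26 to 0.76. Over the 9 genes the median was -0.15, beside -0.015 over all genes, and 7 of 9 were below 0, where 52.9% of all genes were. The 18 hybridisation spike probe sets, which hold no cell RNA, had a median of -0.15 in the same comparison. The 27 labelling spike probe sets, which also hold none, had a median of 0.0029.

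The genes whose pair of differences from vehicle lay closest to that of HLA-DRA, by Euclidean distance over these 2 differences and among genes whose probe sets all went 1 way, were TFF2 (0.25), CST1 (0.43), CDH11 (0.51), MAL2 (0.82) and RNF128 (0.91). TFF2, a secreted trefoil peptide, was 4.36 and 4.59 above vehicle, and CST1, a secreted cystatin, 3.68 and 4.58. CD74, whose probe sets went different ways, does not itself meet that condition on its probe sets. Near the CD74 medians, which are close to 0, the 5 closest genes were PDHA2, TMEM140, FMR1NB, PRPF40B and ITGAD, all within 0.0096. So many genes lie near 0 that closeness there carries little.

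The listed class II genes outside the 9 that had a single-symbol probe set were HLA-DRB1, HLA-DRB4, HLA-DRB6, HLA-DQB1, HLA-DQB2 and HLA-DOB. Of these 6, 3 were at least 1.5-fold higher than vehicle with ERα17p, where 9.56% of all genes were, and 4 with estradiol, where 10.6% of all genes were; 0 were lower in either (8.82% and 8.42% of all genes). HLA-DRB1, the main DR beta chain, read 0.16 with ERα17p, 0.30 with estradiol and -2.10 with vehicle, 2.26 and 2.39 above vehicle. The pseudogene HLA-DRB6 was 0.82 and 0.74 above vehicle, and the DQ beta chain HLA-DQB1 0.74 and 0.83. For HLA-DRB6, 217362_x_at was 1.43 and 1.69 above vehicle, and 217323_at was at 0.22 and -0.21. The 7 HLA-DQB1 probe sets ran from -0.24 to 1.30 with ERα17p and from -0.16 to 1.55 with estradiol. DR beta copies are nearly alike in sequence, and the DR beta probe sets may read more than 1 of them. HLA-DRB4, singled out after its values were seen, had 209728_at at 0.056, 0.24 and -2.79, while its other probe sets differed from vehicle by 0.73 or less. HLA-DPA2 and HLA-DPB2, pseudogenes that were not on the list, were at -0.17 and -0.24 with ERα17p and at -0.26 and 0.25 with estradiol.

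The genes that carry antigen presentation outside class II lay mostly on the same side, by less. With ERα17p, 9 of 18 measured class I chains and loading genes stood at least 1.5-fold above vehicle and 1 below it (median 0.60), and with estradiol 8 stood above and 0 below (median 0.56). Of all genes, 9.56% and 10.6% stood above, and 8.82% and 8.42% below. The class I chain HLA-B was 1.42 and 1.35 above vehicle, HLA-F 1.11 and 1.09, and HLA-C 0.96 and 0.96. The class I genes also share sequence, so their probe sets are not independent. The immunoproteasome subunit PSMB9 was 0.84 and 1.13 above vehicle. The gene lower with ERα17p was the chaperone CALR, at -0.73, named after its value was seen.

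Among genes that process antigen for class II or turn class II over, 4 of 12 were at least 1.5-fold higher with ERα17p and 5 of 12 with estradiol, and 0 were lower (medians 0.34 and 0.49). These shares stand beside 9.56% and 10.6% of all genes higher, and 8.82% and 8.42% lower. The largest differences were in 3 of the 6 listed cathepsins, lysosomal proteases. CTSL was 1.21 and 1.19 above vehicle, CTSS, which trims the invariant chain, 0.95 and 0.94, and CTSH 0.73 and 0.79. Of the other cathepsins, CTSB was at 0.33 and -0.030, CTSD at 0.25 and 0.48 and CTSV at 0.16 and 0.63, all given after their values were seen.

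Of 7 factors that bind class II promoters, 1 was at least 1.5-fold higher with ERα17p, the Y box factor subunit NFYA at 0.71, and 0 with estradiol, where NFYA was at 0.52. The X box factor subunits RFX5 and RFXAP were at 0.26 and 0.36 with ERα17p and at 0.54 and 0.55 with estradiol. RFXANK was at -0.54 and -0.37, and CREB1 at 0.15 and 0.52. The 6 NFYA probe sets ran from 0.27 to 1.16 with ERα17p and from -0.85 to 1.004 with estradiol. The 7 CREB1 probe sets ran from -0.19 to 1.15 and from -0.67 to 1.18. Between the treated arrays, ERα17p minus estradiol, the CREB1 median was -0.038. Medians over the list were 0.21 and 0.52, and 9.56% and 10.6% of all genes were at least 1.5-fold higher.

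On the path from the interferon gamma receptor to CIITA, 2 of 7 genes were at least 1.5-fold higher and 1 lower in each comparison (medians 0.46 and 0.15), beside 9.56% and 10.6% of all genes higher and 8.82% and 8.42% lower. IRF1, an inducer of CIITA transcription, was 0.65 above vehicle with ERα17p and 0.65 with estradiol. The receptor chain IFNGR2 was at 0.54 and 0.78, and the kinase JAK2 at 0.65 and 0.15. USF1, which also binds a CIITA promoter, was lower than vehicle, at -1.56 and -1.48, from 1 probe set.

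Of the ligands for T cells other than the MHC, 2 of 10 stood at least 1.5-fold above vehicle and 1 below it with ERα17p, and 4 above and 1 below with estradiol (medians 0.062 and 0.32). Of all genes 9.56% and 10.6% stood above, and 8.82% and 8.42% below. The adhesion molecule ICAM1 was 1.90 and 2.77 above vehicle, and CD58, the ligand of CD2, 2.31 and 2.14. The 5 CD58 probe sets disagreed, from 0.074 to 3.15 with ERα17p and from -0.043 to 3.05 with estradiol. TNFSF9, a co-stimulatory ligand, was at -1.15 and -1.22.

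Of 16 measured genes listed as markers of blood cells that present antigen, 1 was at least 1.5-fold higher with ERα17p, LYZ at 0.78. With estradiol 1 was, CD14 at 0.75, and 0 were lower in either. The 16 also hold CD3E and CD2, which mark T cells. Of all genes 9.56% and 10.6% were higher, and 8.82% and 8.42% lower. The 2 LYZ probe sets disagreed, at 0.053 and 1.51 with ERα17p and at -0.44 and 1.22 with estradiol. The medians over the markers were -0.010 and 0.010. The lowest was FCER1G, at -0.41, with ERα17p and SPI1, at -0.49, with estradiol. Since the values are centred, whether these markers were present at all cannot be read.

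Of 10 markers of mesenchymal-like breast lines, 2 were at least 1.5-fold above vehicle and 0 below it in each comparison (medians 0.25 and 0.27), with the lowest being AXL at -0.22 with ERα17p and VIM at -0.23 with estradiol, both named after their values were seen. Of all genes 9.56% and 10.6% were above, and 8.82% and 8.42% below. SNAI2 was at 2.08 and 1.84, ZEB1 at 0.61 and 0.35, PLAU at 0.26 and 0.66 and CD44 at 0.58 and 0.54. The 4 ZEB1 probe sets ran from 0.36 to 2.60 with ERα17p and from -0.42 to 2.93 with estradiol. The 13 CD44 probe sets ran from -0.87 to 1.02 and from -1.31 to 1.20. Luminal markers had 0 higher and 1 lower with ERα17p and 1 higher and 1 lower with estradiol of 10 (medians 0.036 and -0.0051), beside the same shares of all genes. Of these 10 luminal markers, 6 were above 0 and 4 below with ERα17p, and 5 above and 5 below with estradiol. KRT18 was at -0.87 and -0.84, KRT8 at -0.55 and -0.47, KRT19 at -0.44 and -0.25, EPCAM at 0.43 and 0.78, and ESR1 at -0.14 and -0.084. The rest are given after their values were seen. GATA3 was at 0.25 and 0.23, ERBB3 at 0.11 and -0.11, and CDH1 at 0.065 and 0.29. FOXA1 was at 0.039 and 0.074, and PGR at 0.033 and 0.15. Whether the differences in these markers bear on the class II values was not tested.

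**Figure D3:**
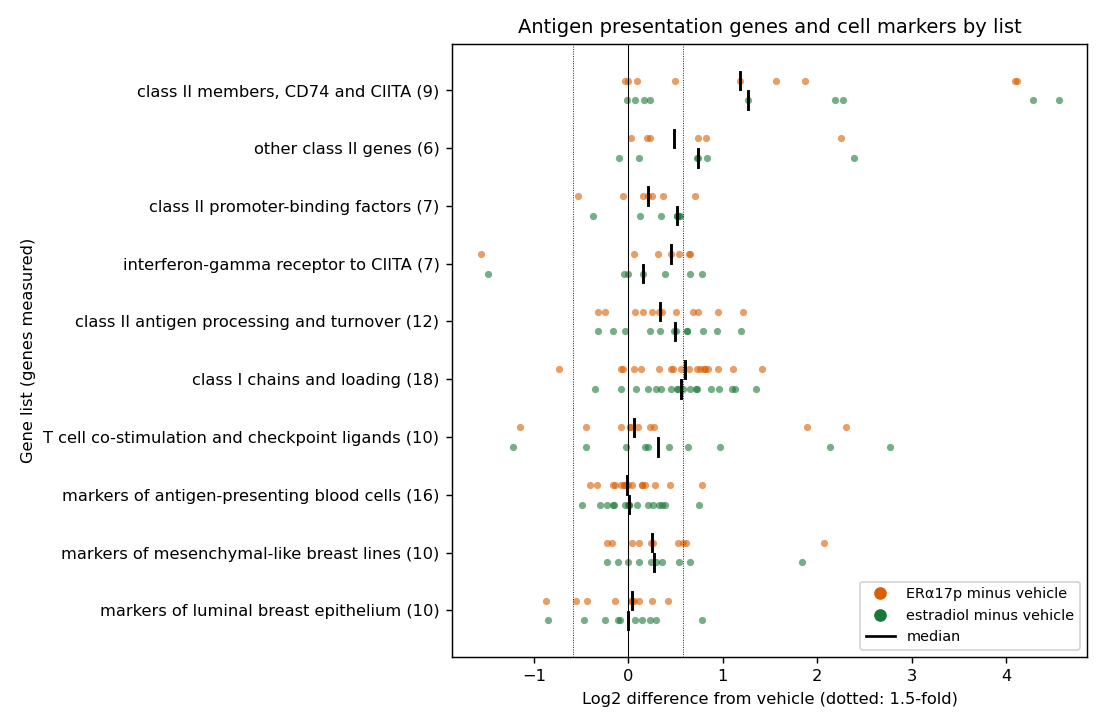
Log2 difference from vehicle (x axis) of each measured gene in 10 lists, given down the page with the number of genes measured, for ERα17p (upper row of each list) and estradiol (lower row); black bars are medians and dotted lines mark 1.5-fold. The class II row reaches 4.56 and has genes near 0, and the row of blood cell markers lies between -0.49 and 0.78.

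The members other than CD74 and CIITA lie together on chromosome 6. In RefSeq gene order on GRCh38.p14, used for order only and chosen after the values were seen, 7 measured genes that are not class II lie between HLA-DRA and HLA-DPB1. With ERα17p, 3 of these 7 were at least 1.5-fold higher than vehicle (9.56% of all genes) and 1 lower, with a median of 0.47. With estradiol 4 were higher (10.6% of all genes) and 1 lower, with a median of 0.65. Of all genes 8.82% and 8.42% were lower. The immunoproteasome subunit genes PSMB8 (0.81 and 0.87) and PSMB9 (0.84 and 1.13), the antisense transcript PSMB8-AS1 (1.19 and 0.98) and the peptide transporter gene TAP1 (0.47 and 0.65) were on the high side. BRD2, a bromodomain gene between HLA-DMA and HLA-DOA, was at least 2-fold lower in both, at -1.04 and -1.40. HLA-DOA itself, beside HLA-DPA1 in this order, was at -0.0047 and 0.072, against 4.09 and 4.29 for HLA-DPA1.

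**Figure D4:**
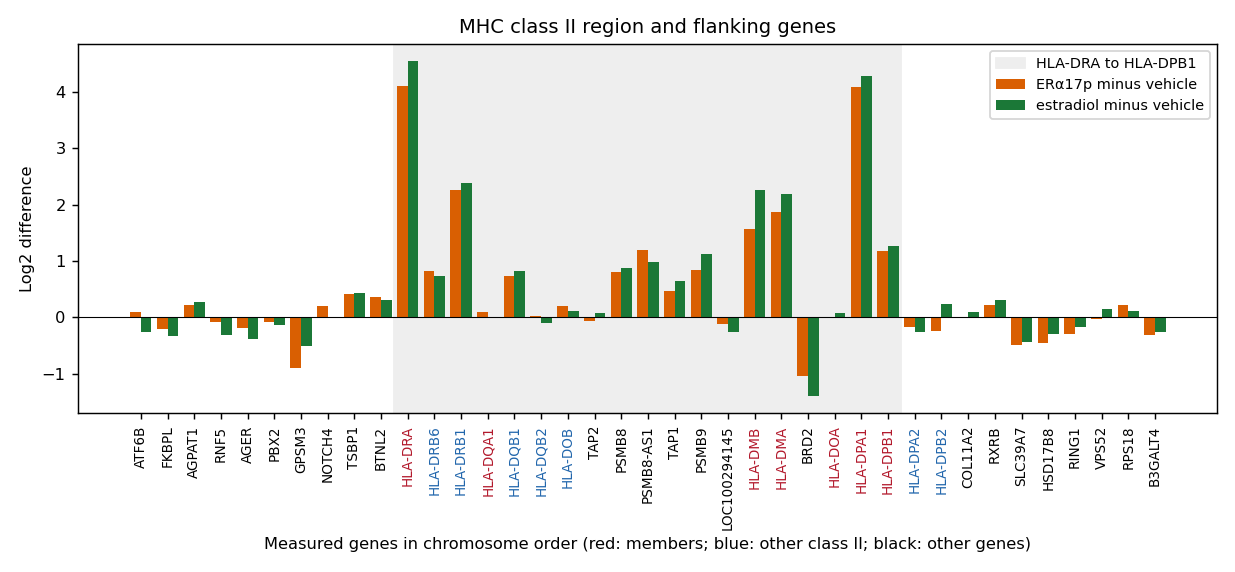
Log2 difference from vehicle (y axis) for ERα17p (left bar) and estradiol (right bar) of measured genes in chromosome order, from 10 genes before HLA-DRA to 10 after HLA-DPB1, with the stretch between them shaded. HLA-DRA and HLA-DPA1 stand above 4, HLA-DMA and HLA-DMB between 1.57 and 2.27, and BRD2 lies at -1.04 and -1.40.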

How the data were processed

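One series table with 3 columns of values, 1 per array, was used. RMA, which corrects background, quantile-normalises and summarises probes, is named without a version per the submitters' processing notes. The scale of the deposited values is read as log2, the scale RMA puts out; every array had a median of 0, values lay on both sides of it, and 8.54%, 8.14% and 7.08% of values were exactly 0 on the ERα17p, estradiol and vehicle arrays. RMA alone does not give this, and the values are read as centred per probe set by an undescribed step, which was not tested. Symbols came from the platform annotation: 41097 of 54675 probe sets had 1 symbol, 1801 several and 11777 none here. For each probe set the difference between 2 arrays was taken, and a gene's difference is the median over its probe sets. Probe sets of a gene can disagree, and their spread is not given for every listed gene. Genes were called at 2-fold and list members at 1.5-fold. No test was possible with single arrays, whose number limits the precision.

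The members and lists were chosen with earlier results of these data known. Named were all members, up to 3 genes per list with the largest absolute difference in each comparison with vehicle, the 5 genes closest to HLA-DRA and to CD74, and ESR1; others are marked. Alternatives were the mean of probe sets, leaving out probe sets ending in _x_at or _s_at, quantile normalisation, and the zero level in place of vehicle. Python 3.11.15, pandas 2.3.3 and numpy 2.4.6 were used, and the scripts were tested on simulated data.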

Additional observations from a re-analysis of the deposited data

Results flagged for a closer look

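No comparison above uses the 6 class II probe sets paired with several symbols. Of these, 4 whose symbols include DR beta genes were at least 2-fold above the vehicle array on both treated arrays. All of the 4 but 204670_x_at are also paired with HLA-DQB1. Probe set 215193_x_at was 3.03 above vehicle with ERα17p and 3.06 with estradiol. Probe set 209312_x_at was 2.85 above vehicle with ERα17p and 2.85 with estradiol, having the same value, 0.14, on both treated arrays and -2.71 on the vehicle array. Probe set 204670_x_at was 2.65 above vehicle with ERα17p and 2.66 with estradiol, and 221491_x_at was 1.72 above with ERα17p and 1.86 with estradiol. The 4 name overlapping sets of genes and may read the same transcripts, so they are not separate measurements. The remaining DR beta probe set, 238900_at, was at -0.18 and -0.0054, and 212671_s_at, for HLA-DQA1 and HLA-DQA2, at 0.069 and 0.59.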

How the results depend on the processing

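No paired analysis was possible because each group has 1 array. A value was taken as moved when its 1.5-fold call changed or it shifted by 1.5-fold or more, since no replicate spread exists. With the mean of probe sets no count, median or member value moved. Without probe sets ending in _x_at or _s_at, which leaves 8 members and drops HLA-DMA, 3 members were at least 2-fold higher than vehicle with ERα17p, and 3 at least 1.5-fold and 3 at least 2-fold with estradiol; the member medians were 0.46 and 0.22, and CIITA with ERα17p was 0.76. HLA-DPB1 then kept the probe set at 0.15 and 0.070. Between the treated arrays 2 members, HLA-DPA1 (-0.60) and HLA-DMB, were then at least 1.5-fold lower with ERα17p, and 14 of all genes were at least 2-fold higher, against 7.

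After quantile normalisation 3 members were at least 2-fold higher than vehicle with ERα17p, HLA-DMB being at 0.96, and 4 with estradiol; 397 of all genes were 2-fold higher and 295 lower, against 661 and 491. With estradiol 514 were higher and 196 lower, against 779 and 432. Between the treated arrays 2 members were 1.5-fold lower with ERα17p, HLA-DRA being at -0.62; of all genes 643 were 1.5-fold higher and 899 lower, against 255 and 404, and 81 were 2-fold higher and 181 lower, against 7 and 42. It shifted the median of all genes by 0.0084 or less. The step gives every array the same distribution. Before it, the SD was 0.241, 0.260 and 0.494 on the ERα17p, estradiol and vehicle arrays. How much of the shifts comes from this was not tested.

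With the zero level in place of vehicle, 0 members were 1.5-fold or 2-fold higher with ERα17p, and 2 were 1.5-fold and 0 were 2-fold higher with estradiol; the member medians were 0.040 and 0.18. Of all genes 98 were 1.5-fold higher and 125 lower with ERα17p, and 254 and 102 with estradiol; at 2-fold these were 3 and 10, and 29 and 1. The cause of these shifts was not tested. No called member value changed sign under these alternatives. Signal over background is unknown, and any of these genes may lie near the limit of detection.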
